A study of Mus musculus with 4 samples.

Results

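Choroid plexus epithelium genes were followed through 4 libraries of mouse striatum. The members are 10 named genes, Ttr, Kl, Folr1, Kcne2, Sostdc1, Clic6, Otx2, Calml4, Kcnj13 and Enpp2, out of 29144 features in the table. They were picked by symbol, with 1 row for each, and after earlier results of these libraries had shown genes of the plexus low in the mutants. Their levels below are therefore a description, and no test of them was made.

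The mice were Huntington's disease knock-in animals, whose huntingtin gene Htt carries an expanded repeat, and wild-type animals, all of C57BL/6J background and 21 weeks old. HDQ150/150 and HDQ200/200 carry the named mutant allele on both chromosomes, HDQ315/+ carries 1 mutant and 1 wild-type allele, and HDQ+/+ is the wild type. Poly A+ RNA of dissected striatum, the input nucleus of the basal ganglia, gave 1 paired-end library for each genotype, and neither the number nor the sex of the animals behind it is stated in the labels. No replicate stands behind any difference, so none has a p-value, and all comparisons with the wild type rest on the same HDQ+/+ library. Htt stood at 4.42 FPKM in HDQ150/150, 7.68 in HDQ200/200 and 4.78 in HDQ315/+, against 7.56 in HDQ+/+; a knock-in keeps the gene, so this level does not check the labels.

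The libraries held between 25058800 and 36877700 fragments assigned to features, to 6 digits. FPKM, fragments scaled to transcript length and library size, are used as the authors deposited them. Calls of higher or lower need a difference in log2(FPKM + 1) of at least 1.5-fold (0.58 on the log2 scale), a scale that understates the change of low genes, and 12881 named genes with a mean of at least 1 FPKM were compared in this way. Ratios of the deposited scaled counts are given with a 95% interval by the exact Clopper-Pearson method, which covers counting error only and says nothing of the spread between animals. That interval lay below 1 for 25.7% of the genes compared in HDQ150/150, 35.0% in HDQ200/200 and 32.1% in HDQ315/+ against HDQ+/+, and above 1 for 34.8%, 38.3% and 35.9%, so an interval that leaves out 1 is common here. The striatal projection neuron marker Ppp1r1b, which encodes DARPP-32, was at 425 FPKM in HDQ150/150, 293 in HDQ200/200 and 602 in HDQ315/+, against 830 in HDQ+/+, and none of the 9 markers of that cell type was at 0 in any library.

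The choroid plexus is a folded epithelium in the brain's ventricles that secretes cerebrospinal fluid and forms the barrier between blood and that fluid. Its cells move ions and water through channels and transporters, carry vitamins and hormones across, and release proteins into the fluid. In the lateral ventricle the plexus lies beside the striatum but is no part of it, so a striatal dissection can hold more or less of it. In bulk tissue, fewer plexus cells and less RNA per cell cannot be told apart.

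The upstream sequence of a few members is given first, because these genes were low together in the mutants. RefSeq start sites on GRCm38.p6 were at hand for 5 of the 10 members, Kl, Kcne2, Otx2, Calml4 and Kcnj13. The 250 bases before the start are printed for 3 members with a window that overlaps no exon in GENCODE M21, each 5′ to 3′ on the strand of its gene, with TATAAA in capitals. The first listed Otx2 start and the second Kcne2 start also had such windows, which are not printed here. The Kl window is chr5:150952357-150952606 on the plus strand, that of the first Kcne2 start is chr16:92292139-92292388 on the plus strand, and that of Kcnj13 is chr1:87394730-87394979 on the minus strand.
Kl: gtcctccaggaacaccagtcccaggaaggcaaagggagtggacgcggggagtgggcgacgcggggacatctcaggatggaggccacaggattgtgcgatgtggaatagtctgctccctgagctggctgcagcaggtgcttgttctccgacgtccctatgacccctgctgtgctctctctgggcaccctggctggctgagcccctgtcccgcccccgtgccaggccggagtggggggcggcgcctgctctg
Kcne2: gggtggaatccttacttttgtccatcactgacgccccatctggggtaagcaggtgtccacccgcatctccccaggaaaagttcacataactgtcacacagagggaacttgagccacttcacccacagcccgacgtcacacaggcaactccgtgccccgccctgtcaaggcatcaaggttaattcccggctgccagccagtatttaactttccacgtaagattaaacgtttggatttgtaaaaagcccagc
Kcnj13: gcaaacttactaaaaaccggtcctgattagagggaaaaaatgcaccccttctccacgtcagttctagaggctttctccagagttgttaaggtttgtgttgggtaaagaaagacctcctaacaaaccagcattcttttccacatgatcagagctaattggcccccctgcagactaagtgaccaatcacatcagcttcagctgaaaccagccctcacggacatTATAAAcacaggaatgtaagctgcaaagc

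The 3 windows differ in base composition. Kl's was 66.8% G and C with 13 CpG pairs, Kcne2's 52.4% with 9 and Kcnj13's 45.2% with 3, beside medians of 52.4% and 6 over all 32851 start sites in the table. Of the 9 start sites listed for the 5 members, TAATCC, the site type bound by bicoid-type homeodomain factors such as Otx2, was found on either strand at 1, the third listed start of Otx2 itself. Over all start sites 6.25% held it. TATAAA on the gene's strand was found at 2 of the 9, 29 bases upstream of the Kcnj13 start and 192 bases upstream of the first listed Otx2 start, against 7.59% of all start sites. A match is a description of the letters only.

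All 10 members were lowest in a mutant library and highest in HDQ+/+. Each was called lower in HDQ150/150, where 3.32% of all genes compared were called lower and 2.93% higher, in HDQ200/200, where 8.79% were lower and 5.38% higher, and in HDQ315/+, where 2.12% were lower and 2.90% higher. Across the 3 mutants together, 10 of 10 members were called lower in all of them, as were 77 of the 12881 genes compared (0.598%); without the HDQ315/+ library it was again 10 of 10, beside 1.79% of all genes. The median log2 ratio of the members was −2.29 in HDQ150/150, −2.30 in HDQ200/200 and −1.74 in HDQ315/+, where the medians over all genes compared were −0.01, −0.05 and 0.04. Since the members were chosen for being low in the mutants, these counts support nothing by themselves. All 10 passed the filter on mean FPKM. Kcne2 and Kcnj13, however, were under 1 FPKM in each mutant and passed through HDQ+/+ alone, so they had to differ. Sostdc1 (0.443, 0.550 and 1.69 FPKM in the mutants) and Otx2 (0.465, 0.667 and 1.33) also passed only through HDQ+/+, their means over the mutants being under 1.

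**Figure D1:**
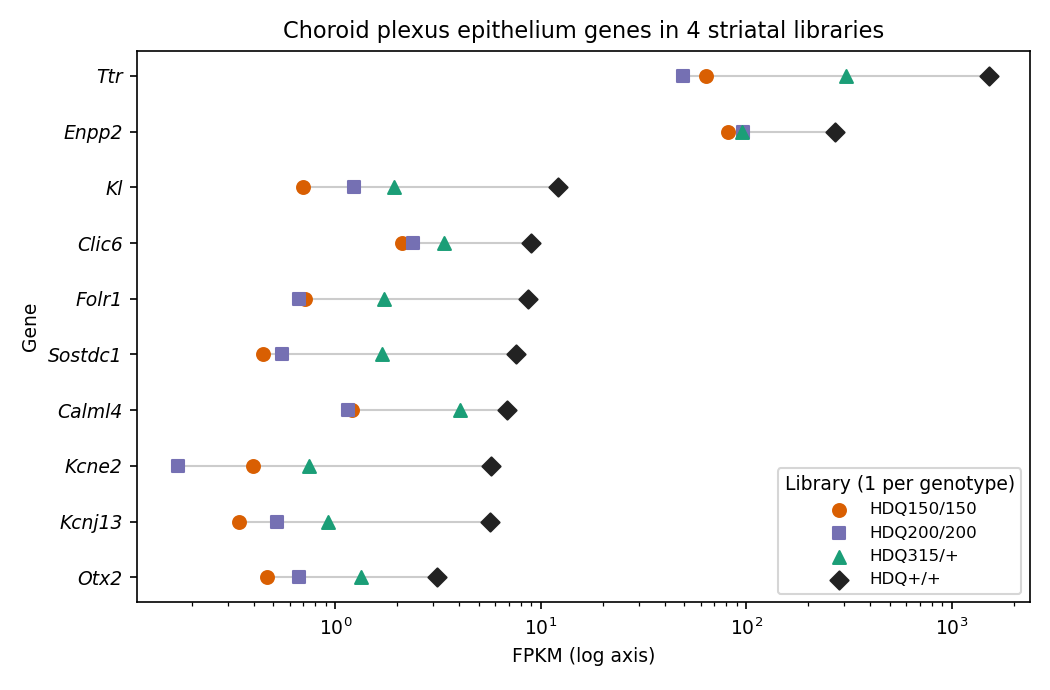
Level of each member in each library, as FPKM on a log axis, with 1 point per library and a grey line over the range. HDQ+/+ is the rightmost point for all 10 genes, from 3.14 FPKM for Otx2 to 1519.9 FPKM for Ttr, and HDQ315/+ is the highest mutant for 9 of them.

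Among the secreted proteins, Ttr moved furthest. Ttr encodes transthyretin, which the plexus releases into the fluid as a carrier of thyroxine and of the retinol-binding protein (mm10 chromosome 18, 20665250 to 20674326 in the table). It stood at 63.9 FPKM in HDQ150/150, 49.2 in HDQ200/200 and 305 in HDQ315/+, against 1519.9 in HDQ+/+, from 1643, 1726, 8474 and 61458 fragments in the same order. That was 23.8-fold, 30.9-fold and 4.99-fold lower by FPKM, and its log2 ratios of −4.55, −4.92 and −2.31 were the lowest of all 12881 genes in each of the 3 comparisons on this scale. In HDQ315/+ that rank depends on the scale: with a pseudocount of 0.1, Kcne2 (−2.79), Kl (−2.58) and Kcnj13 (−2.50) lay below Ttr (−2.32), and with scaled counts in place of FPKM Kl (−2.56) lay below Ttr (−2.37). Even its level in HDQ200/200 was far above the other members' except Enpp2's, so Ttr was still a well-measured transcript in every library.

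Ttr is also made by the liver, and transcripts of liver genes were present in HDQ315/+. Alb, the albumin gene, was at 0.118 FPKM in HDQ150/150, 0.101 in HDQ200/200 and 77.0 in HDQ315/+, against 0.132 in HDQ+/+. Of 9 liver genes with a mean of at least 1 FPKM, 8 were called higher in HDQ315/+, but these 8 passed the filter through that library alone and so had to be higher there. The remaining one was Trf, which oligodendrocytes also express, at 192, 169 and 218 FPKM in the mutants and 253 in HDQ+/+. The summed level of the 12 listed was 194, 170 and 415 FPKM in the mutants against 255 in HDQ+/+, most of it from Trf outside HDQ315/+. Fabp1, Serpina1c and Fgb were at 0 in the other 3 libraries and at 19.2, 5.84 and 4.58 FPKM in HDQ315/+. The part of these transcripts in the HDQ315/+ level of Ttr was not tested; in the same library, where Ttr was 4.99-fold lower, Folr1, Kcnj13, Kl and Kcne2 were 5.01-fold to 7.71-fold lower and Sostdc1, Enpp2, Clic6, Otx2 and Calml4 were 4.51-fold to 1.69-fold lower.

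Enpp2 was lower by the smallest FPKM fold of the 10 in the homozygous mutants. It encodes autotaxin, the secreted enzyme that makes the signalling lipid lysophosphatidic acid (chromosome 15, 54838890 to 54952686). Its levels were 81.4 FPKM in HDQ150/150, 95.9 in HDQ200/200 and 94.8 in HDQ315/+, against 271 in HDQ+/+, from 5979, 9773, 7018 and 31390 fragments. The mutants lay close together, 3.33-fold, 2.82-fold and 2.86-fold below HDQ+/+ by FPKM.

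Oligodendrocytes express Enpp2 too. The summed level of 10 myelin genes was 3206.1 FPKM in HDQ150/150, 2922.2 in HDQ200/200 and 3266.8 in HDQ315/+, against 3776.7 in HDQ+/+, and none was at 0. Called lower were 2 of the 10 in HDQ150/150, 1 in HDQ200/200 and 2 in HDQ315/+, with medians of −0.20, −0.25 and −0.13. Mbp, of compact myelin, was at 1874.5, 1458.4 and 1967.0 FPKM in the mutants and 1974.5 in HDQ+/+. Their part in the level of Enpp2 was not tested.

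Sostdc1, a secreted antagonist of bone morphogenetic protein and Wnt signalling (chromosome 12, 36314169 to 36318452), was at 0.443 FPKM in HDQ150/150, 0.550 in HDQ200/200 and 1.69 in HDQ315/+, against 7.60 in HDQ+/+. Those values rest on 15, 27, 64 and 413 fragments. By scaled counts the gene was 16.9-fold lower in HDQ150/150 (interval 10.1 to 30.5), 13.3-fold lower in HDQ200/200 (9.04 to 20.5) and 4.46-fold lower in HDQ315/+ (3.42 to 5.90).

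The receptor genes Folr1 and Kl were likewise highest of the mutants in HDQ315/+. Folr1 encodes folate receptor alpha, through which the plexus passes folate into the fluid (chromosome 7, 101858331 to 101870788). It was at 0.713 FPKM in HDQ150/150, 0.668 in HDQ200/200 and 1.73 in HDQ315/+, against 8.65 in HDQ+/+, from 26, 35, 67 and 488 fragments. The 2 homozygous mutants were level, 12.1-fold and 12.9-fold below HDQ+/+, and HDQ315/+ was 5.01-fold below it. Anapc15, which overlaps Folr1 on the other strand, was at 9.37, 6.16 and 8.86 FPKM in the mutants and 8.32 in HDQ+/+, none of its ratios past the fold size.

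Kl encodes klotho, the co-receptor of fibroblast growth factor 23, which the plexus also sheds into the fluid (chromosome 5, 150952607 to 150993817). Its levels were 0.694 FPKM in HDQ150/150, 1.24 in HDQ200/200 and 1.93 in HDQ315/+, against 12.1 in HDQ+/+, from 70, 172, 207 and 1889 fragments. By counting error alone the 4 libraries could be ordered, with no neighbouring pair whose counting interval held 1. The log2 ratios of HDQ200/200 over HDQ150/150 (0.40) and of HDQ315/+ over HDQ200/200 (0.39) were under the fold size. With the length trend removed they were 0.12 and 0.71. Kl was 17.4-fold lower in HDQ150/150, 9.74-fold lower in HDQ200/200 and 6.24-fold lower in HDQ315/+.

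**Figure D2:**
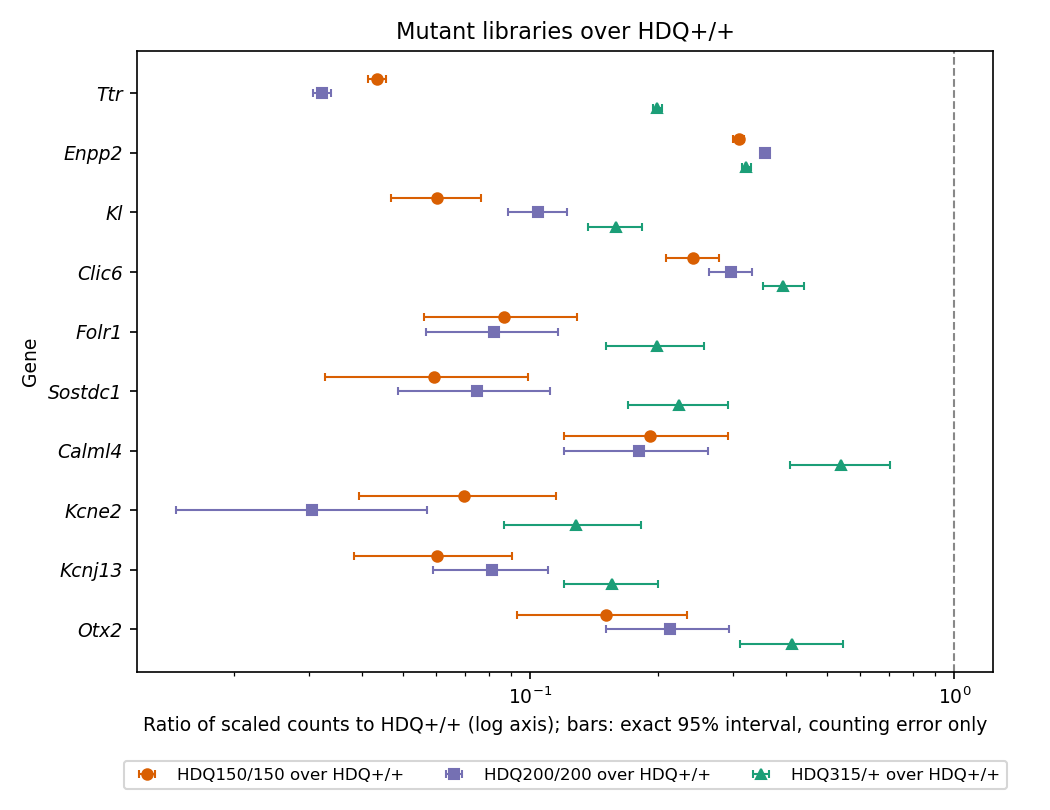
Ratio of scaled counts of each mutant library to HDQ+/+ on a log axis, with exact 95% intervals for counting error only. All 30 points lie left of 1, Ttr in HDQ200/200 at 0.0322 and Calml4 in HDQ315/+ at 0.539, and the HDQ315/+ triangle is the rightmost for every gene except Enpp2.

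Of the channel genes, Kcne2 and Kcnj13 were near their counting limit in the mutants. Kcne2 encodes a small accessory subunit of potassium channels that sits at the apical membrane of the plexus (chromosome 16, 92292389 to 92298133). It was at 0.396 FPKM in HDQ150/150, 0.171 in HDQ200/200 and 0.746 in HDQ315/+, against 5.75 in HDQ+/+, from 16, 10, 33 and 374 fragments. The fold by scaled counts was 14.4 in HDQ150/150 (8.73 to 25.4), 32.6 in HDQ200/200 (17.5 to 68.6) and 7.83 in HDQ315/+ (5.48 to 11.6), so the mutants' order is poorly fixed for this gene.

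Kcnj13 encodes the inward rectifier potassium channel Kir7.1 of the same membrane. Its own span is chromosome 1, 87386363 to 87394729 in GENCODE M21, inside Gigyf2 on the other strand. Levels were 0.339 FPKM in HDQ150/150, 0.520 in HDQ200/200 and 0.920 in HDQ315/+, against 5.67 in HDQ+/+, from 24, 46, 70 and 648 fragments. The gene was 16.7-fold, 10.9-fold and 6.16-fold lower in that order. Its host did not share the drop, Gigyf2 being at 7.25, 10.1 and 6.45 FPKM in the mutants and 6.77 in HDQ+/+, although reads of overlapping genes cannot be told apart where the strandedness of counting is not stated.

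Clic6, of the chloride intracellular channel family (chromosome 16, 92498147 to 92541241 in the table), kept more of its level. It was at 2.1 FPKM in HDQ150/150, 2.39 in HDQ200/200 and 3.39 in HDQ315/+, against 8.92 in HDQ+/+, from 218, 380, 401 and 1467 fragments. That is 4.25-fold, 3.73-fold and 2.63-fold lower. In HDQ+/+ Clic6 and Folr1 had nearly the same FPKM, with a ratio of 1.03. Clic6 was 2.95 times Folr1 in HDQ150/150, 3.58 times in HDQ200/200 and 1.97 times in HDQ315/+. The mutant ratios rest on few Folr1 fragments (26, 35 and 67) and are known only loosely.

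Otx2 and Calml4 stand for the transcription factor and for the cell cortex. Otx2, a homeodomain factor that the plexus needs to form (chromosome 14, 48657826 to 48667513 in the table), was at 0.465 FPKM in HDQ150/150, 0.667 in HDQ200/200 and 1.33 in HDQ315/+, against 3.14 in HDQ+/+. Otx2os1, which overlaps it on the other strand, was also low in the mutants, at 0, 0.121 and 0.158 FPKM, against 0.522 in HDQ+/+. From 22, 44, 68 and 237 fragments, Otx2 was 6.62-fold (4.27 to 10.8), 4.70-fold (3.40 to 6.64) and 2.41-fold (1.83 to 3.20) lower by scaled counts. Calml4, a calmodulin-like protein known from the brush border of other epithelia, spans 62858080 to 62875921 on chromosome 9 in GENCODE M21. Its levels of 1.21 FPKM in HDQ150/150, 1.15 in HDQ200/200 and 4.06 in HDQ315/+, against 6.83 in HDQ+/+, came from 24, 32, 76 and 204 fragments.

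Calml4 was thus 5.66-fold and 5.93-fold lower in the homozygous mutants but 1.69-fold lower in HDQ315/+, the smallest change of any member in any mutant. Its log2 ratio in HDQ315/+, −0.63, was just past the fold size of 0.58 and lay 1.10 above the members' median. Cln6, which shares the table's locus with it, was at 4.74, 3.42 and 4.88 FPKM in the mutants and 4.54 in HDQ+/+.

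The members did not all move by 1 factor. In HDQ150/150 the FPKM of the 10 genes were between 3.33-fold and 23.8-fold lower than in HDQ+/+, in HDQ200/200 between 2.82-fold and 33.7-fold, and in HDQ315/+ between 1.69-fold and 7.71-fold. Kl, Folr1, Sostdc1, Kcne2 and Kcnj13 made 1 group, between 9.74-fold and 33.7-fold lower in the homozygous mutants. Enpp2, Clic6, Otx2 and Calml4 made another, at most 6.75-fold lower in any mutant, and this division was drawn after the values had been seen.

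Within a library, the balance among members shifted with it. Ttr made up 42.1% of the members' summed FPKM in HDQ150/150, 32.3% in HDQ200/200 and 73.4% in HDQ315/+, against 82.2% in HDQ+/+. Enpp2's share was 53.7%, 62.9% and 22.8% in the mutants and 14.7% in HDQ+/+. The ratio of Ttr to Folr1 was 89.6 in HDQ150/150 and 73.7 in HDQ200/200, but 177 in HDQ315/+ against 176 in HDQ+/+. Folr1 rests on 26, 35 and 67 fragments in the mutants, so these ratios are known only loosely. The part of liver transcripts in Ttr in HDQ315/+ was not tested. Without Ttr and Enpp2, the other 8 members summed to 6.36 FPKM in HDQ150/150, 7.36 in HDQ200/200 and 15.8 in HDQ315/+, against 58.6 in HDQ+/+, which is 9.22-fold, 7.97-fold and 3.71-fold lower.

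Between the mutants, 9 of the 10 members were highest in HDQ315/+, Enpp2 being the exception. With a trend of the ratio on transcript length removed, Kcnj13 turned direction against HDQ200/200, at −0.34 in place of 0.34, Folr1 and Kcne2 came to 0.05 each, and the members' median over HDQ200/200 came to 0.25. Against HDQ150/150, 6 of 10 were called higher in HDQ315/+ and none lower, with a median of 0.67. Of all genes, 2.51% were called higher and 1.93% lower. Ttr (2.24), Calml4 (1.20), Sostdc1 (0.90), Kl (0.79), Folr1 (0.67) and Otx2 (0.67) were the 6. Intervals lay above 1 for 9 members, beside 24.4% of all genes, and below 1 for none, beside 29.2%. Kcne2 was the member whose interval held 1, its scaled count ratio being 1.83 (0.981 to 3.57).

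Against HDQ200/200, 4 of 10 were called higher in HDQ315/+ and none lower, with a median of 0.53, where 18.2% of all genes were called higher and the median over all genes was 0.11. The 4 were Ttr (2.61), Calml4 (1.23), Sostdc1 (0.79) and Folr1 (0.71). Intervals lay above 1 for 9 members, beside 41.6% of all genes, and below 1 for 1, beside 39.0%. By ratios of scaled counts with no pseudocount, 8 members were past 1.5-fold, a rule whose share over all genes is not given here. Enpp2 alone went the other way, at 0.906 (0.879 to 0.935) by scaled counts, with 94.8 FPKM in HDQ315/+ and 95.9 in HDQ200/200.

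HDQ200/200 and HDQ150/150 could hardly be ordered. No member passed the fold size in either direction, where 10.7% of all genes were called lower and 7.62% higher, and the members' median was 0.12. Of the 10, 6 were lowest in HDQ150/150 and 4 in HDQ200/200, and for 6 members the counting interval of the 2 lowest libraries held 1. Intervals lay above 1 for 3 members, beside 35.0% of all genes, and below 1 for 1, beside 39.5%. Kl was 1.73 times as high in HDQ200/200 (1.30 to 2.32), Clic6 1.23 times (1.04 to 1.46) and Enpp2 1.15 times (1.11 to 1.19), while Ttr was lower there, at 0.740 (0.691 to 0.792). The direction of Ttr turned with the length trend removed, its log2 ratio being 0.16 in place of −0.37, as did those of Folr1 (0.46 in place of −0.04), Kcne2 (0.14 in place of −0.25) and Calml4 (0.20 in place of −0.04). By scaled counts without a pseudocount Kl (1.73) and Kcne2 (0.440, 0.179 to 1.03) were past 1.5-fold, in opposite directions. The share of all genes past 1.5-fold by that rule is not given here.

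**Figure D3:**
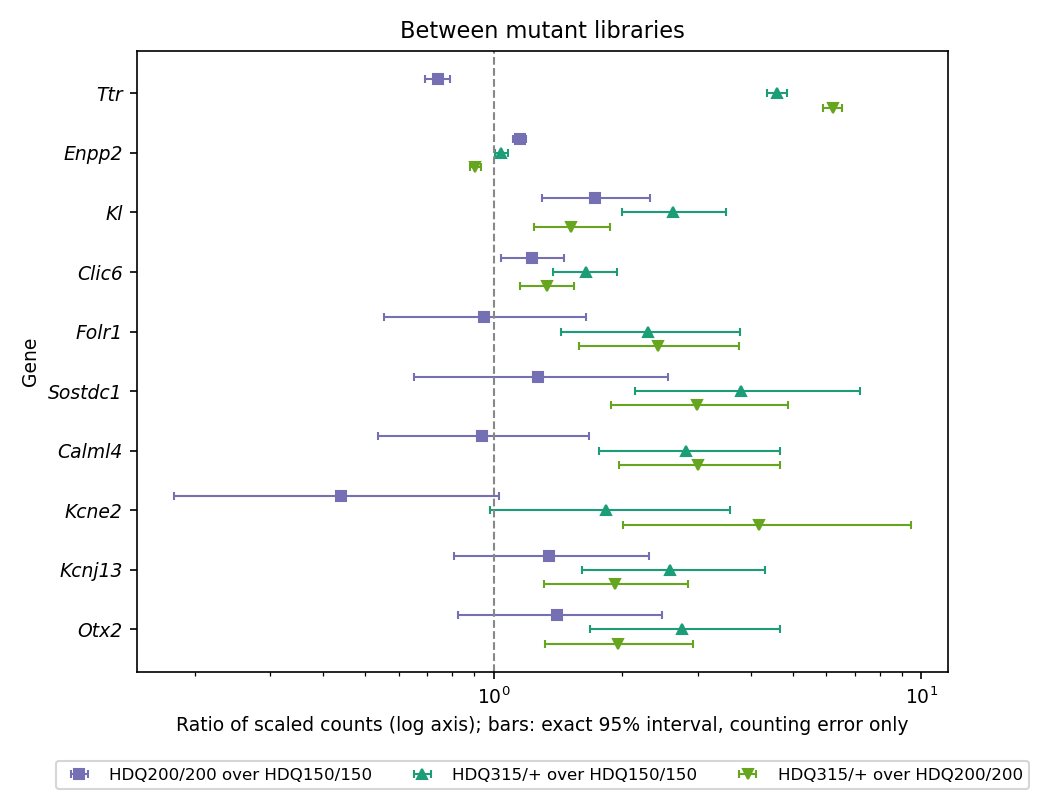
Ratio of scaled counts between pairs of mutant libraries on a log axis, with exact 95% intervals for counting error only. Ratios of HDQ315/+ over the other mutants lie right of 1 for every gene except Enpp2 over HDQ200/200 (0.906), and 6 of the 10 intervals of HDQ200/200 over HDQ150/150 cross 1.

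Other genes of the plexus epithelium were low as well, though less evenly. Of 44 listed genes, all in the table, 25 had a mean of at least 1 FPKM. Of these, 14 were called lower in HDQ150/150, 14 in HDQ200/200 and 10 in HDQ315/+, beside 3.32%, 8.79% and 2.12% of all genes compared. None was called higher in any mutant, beside 2.93%, 5.38% and 2.90%. The medians of the 25 were −0.71, −0.78 and −0.54, and 8 were called lower in all 3 mutants, beside 0.598% of all genes. Slc13a4, under 1 FPKM in each mutant, passed the filter through HDQ+/+ alone and had to be lower. Krt18 also passed only through HDQ+/+, its mean over the mutants being under 1. Several of the 44 are also expressed by neurons, glia or vessels, among them Slc4a10, Slc12a2, Htr2c and Vat1l.

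Secreted proteins, receptors and enzymes were the most affected of these lists, with 8 of 10 called lower in HDQ150/150, 9 in HDQ200/200 and 6 in HDQ315/+. 1500015O10Rik, which encodes the secreted peptide precursor augurin, was at 2.69 FPKM in HDQ150/150, 1.62 in HDQ200/200 and 7.16 in HDQ315/+, against 23.7 in HDQ+/+ (−2.74, −3.24 and −1.60). Igf2, an insulin-like growth factor that the plexus and the meninges secrete, was at 5.78, 5.22 and 6.24 FPKM in the mutants and 14.2 in HDQ+/+. Igfbp2, which binds such factors, was at 13.4, 6.57 and 12.9 FPKM in the mutants and 26.5 in HDQ+/+. Rdh5, Ace and Lbp were also called lower in all 3, Rdh5 most in HDQ200/200 (−1.64).

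Among 11 transport genes, 4 were called lower in HDQ150/150, 3 in HDQ200/200 and 4 in HDQ315/+. Car12, a carbonic anhydrase, was at 6.31 FPKM in HDQ150/150, 8.16 in HDQ200/200 and 9.12 in HDQ315/+, against 21.1 in HDQ+/+. Slc13a4, a sulphate transporter, was at 0.510, 0.508 and 0.539 FPKM in the mutants and 3.08 in HDQ+/+, with no rise in HDQ315/+ over the other mutants (0.03 each). The chloride cotransporter gene Slc12a2, which neurons and glia share, had ratios of −0.36, 0.39 and −0.59. Slc22a8, an organic anion transporter, was level, with 4.11, 3.86 and 4.34 FPKM in the mutants and 3.81 in HDQ+/+.

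Of 4 junction and cortex genes above the filter, Krt18 had the lowest ratios in HDQ150/150 (−1.58) and HDQ200/200 (−1.44), and Cgnl1 in HDQ315/+ (−0.56, beside −0.54 for Krt18), while Ezr, at 18.1, 15 and 17.3 FPKM in the mutants and 21.5 in HDQ+/+, was under the fold size throughout. None was called lower in HDQ315/+. The 3 listed transcription factors were under the filter, Lmx1a from 8, 2 and 4 fragments in the mutants and 36 in HDQ+/+.

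Some plexus genes missed the filter of a mean of 1 FPKM although they were above 1 FPKM in HDQ+/+, because they were lower in the mutants. Fragments are given here for a few of them, named after their values had been seen. The low mutant levels of such genes thus decided that they were left out of the counts above. Aqp1, the apical water channel, had 10 fragments in HDQ150/150, 17 in HDQ200/200 and 35 in HDQ315/+, against 358 in HDQ+/+, scaled count ratios of 0.0454 (0.0216 to 0.0846), 0.0544 (0.0313 to 0.0884) and 0.141 (0.0970 to 0.200). Slc4a5, a bicarbonate cotransporter, had 12, 14 and 37 in the mutants and 370 in HDQ+/+. Cldn2, a tight junction protein, had 4, 7 and 27 fragments in the mutants and 262 in HDQ+/+, with ratios of 0.0248 (0.00672 to 0.0644), 0.0306 (0.0122 to 0.0640) and 0.149 (0.0964 to 0.222). The prolactin receptor gene Prlr had 11, 31 and 57 in the mutants and 429 in HDQ+/+. Wfdc2 had no fragment in HDQ200/200 and 58 in HDQ+/+, which against a floor of 3 fragments per library is at least 16.9-fold lower. The ratios of Aqp1, Slc4a5 and Cldn2 were below those of Clic6 and Otx2 in each mutant. Others left out in this way were less far below HDQ+/+. Among them Cldn1 had scaled count ratios of 0.556, 0.592 and 0.687 in the mutants, and Slc16a8 had 0.403, 0.442 and 0.372. Msx2, at 0.0619 FPKM in HDQ+/+, was not one of this group. It was not low in the mutants, with 9, 9 and 4 fragments there and 4 in HDQ+/+, but these are few in every library.

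Ependymal cells, which line the ventricles and carry motile cilia, had mostly low marker levels in the homozygous mutants but not in HDQ315/+. Of 9 ependymal genes above the filter, 5 were called lower in HDQ150/150 and 6 in HDQ200/200, with medians of −0.72 and −0.68, while in HDQ315/+ none was lower and 2 were higher, with a median of 0.22. Their summed level over 12 listed genes was 34.3 FPKM in HDQ150/150, 38.1 in HDQ200/200 and 71.6 in HDQ315/+, against 56.1 in HDQ+/+, and none was at 0. Rarres2 was the most abundant, at 9.48, 7.24 and 19.4 FPKM in the mutants and 12.5 in HDQ+/+. Ccdc39 went the other way in HDQ200/200, at 5.98, 9.01 and 6.45 FPKM in the mutants and 6.99 in HDQ+/+. Its scaled count ratio in HDQ200/200 was 1.34 (1.22 to 1.47). Some listed genes under the filter were above HDQ+/+ in HDQ200/200 too. Against HDQ+/+, Calml4 lay between the members' and the ependymal median in HDQ150/150 (−1.83), HDQ200/200 (−1.86) and HDQ315/+ (−0.63). Its log2 ratio of HDQ315/+ over HDQ150/150, 1.20, was above both medians, 0.67 for the members and 0.96 for the ependymal genes. Dynlrb2 (1.24) and Rsph1 (1.20), genes of cilia picked after their values had been seen, were near it. Not all ependymal genes were, Ccdc39 being at 0.09. Whether ependymal RNA bears on Calml4 was not tested.

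The plexus has a stroma of fibroblasts and leaky vessels. Of 9 genes of stromal and meningeal fibroblasts, none was called lower in HDQ150/150 or HDQ315/+ and 1 was in HDQ200/200, with medians of −0.13, −0.30 and −0.06. The 13 listed summed to 18.5, 16.7 and 22.0 FPKM in the mutants and 22.2 in HDQ+/+, none at 0. Fbln1 was at 1.98, 2.43 and 4.46 FPKM in the mutants and 3.28 in HDQ+/+, and Dcn at 3, 3.23 and 3.66 FPKM in the mutants and 4.31 in HDQ+/+. Plvap, which marks the fenestrated vessels of the plexus among others, was at 3.34, 1.77 and 3.31 FPKM in the mutants and 4.99 in HDQ+/+, called lower in HDQ200/200 (−1.11), as was Cldn5 of the tight brain endothelium (−0.84). Of 8 endothelial genes, none was called lower in HDQ150/150, 3 were in HDQ200/200 and 1 in HDQ315/+. The endothelial list summed to 108, 78.8 and 119 FPKM in the mutants and 112 in HDQ+/+.

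**Figure D4:**
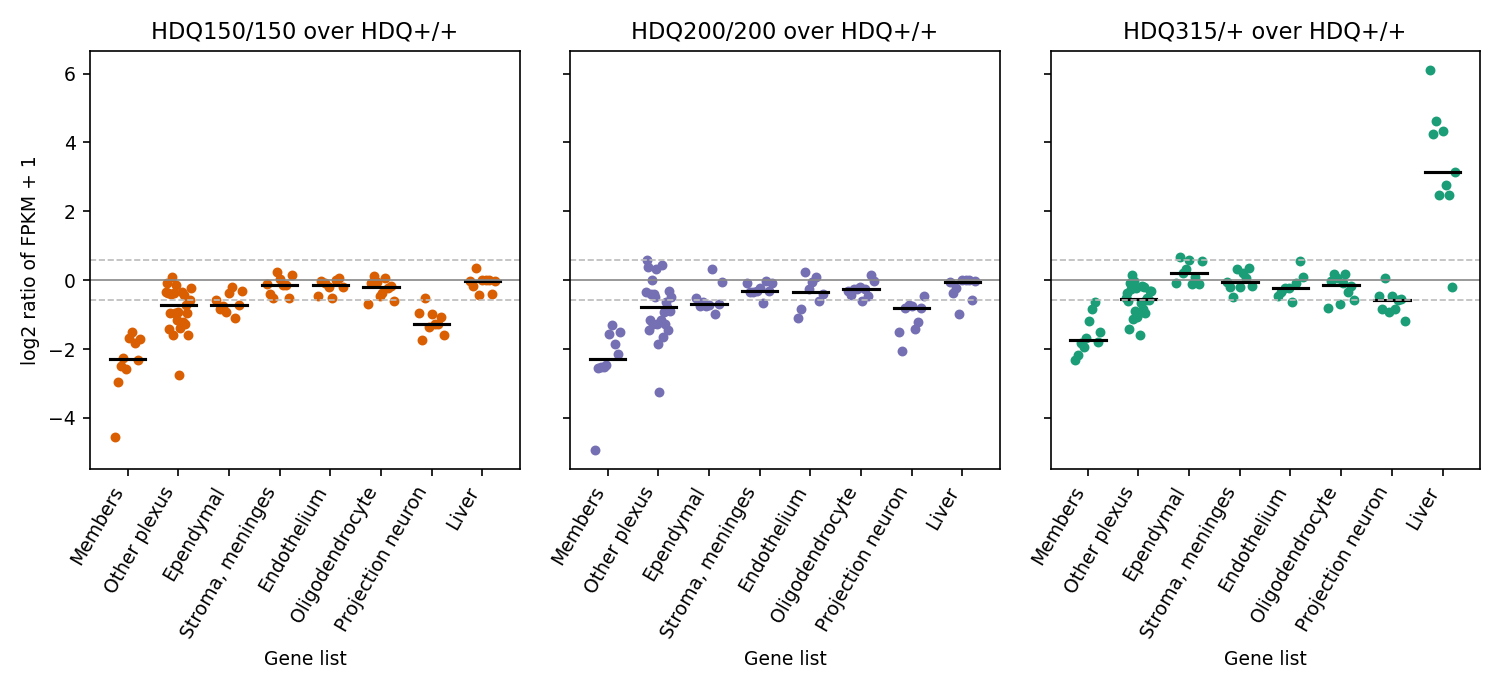
Log2 ratio of FPKM + 1 of each mutant library over HDQ+/+ for each gene of a list with a mean of at least 1 FPKM, with black bars for list medians and dashed lines at the 1.5-fold size. The members have the lowest medians (−2.29, −2.30 and −1.74). The ependymal median is below 0 in the homozygous mutants and slightly above 0 in HDQ315/+. Liver genes, 8 of which passed the filter through HDQ315/+ alone, are high there.

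Striatal projection neuron genes were low in the mutants too, with 8 of 9 called lower in HDQ150/150, 8 in HDQ200/200 and 4 in HDQ315/+ (medians −1.26, −0.80 and −0.56). Penk, the enkephalin precursor, was at 305, 247 and 570 FPKM in the mutants and 1029.5 in HDQ+/+. Their summed level was 1447.3 FPKM in HDQ150/150, 1357.8 in HDQ200/200 and 2216.3 in HDQ315/+, against 3339.0 in HDQ+/+. The order of the 4 libraries by this sum was that of Ttr by FPKM, although Penk, whose ratios of −1.75 and −2.06 were the lowest of the 9 in the homozygous mutants, had higher ratios than Ttr in all 3 mutants. In HDQ315/+ the lowest of the 9 was Pde10a (−1.17). Whether this bears on the members was not tested.

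Genes of other kinds with like patterns were found by the distance between log2 ratios over the 3 mutant libraries. Nearest to the members' median were 1110059M19Rik (distance 0.944), Cox8b (1.01), Ryr1 (1.02), Krt9 (1.02), 1500015O10Rik (1.04) and Penk (1.07), followed by Mafa, Slc13a4, Clspn and Scn4b. Only 1500015O10Rik and Slc13a4 of these 10 were on the plexus lists. 1110059M19Rik, at 0.347, 0.223 and 0.609 FPKM in the mutants and 3.14 in HDQ+/+, passed the filter through HDQ+/+ alone. Like Slc13a4, it therefore had to be lower in the mutants. The search took only genes with a mean of at least 1 FPKM, so plexus genes and other genes under that mean were left out. Slc4a5, left out in this way, had ratios of −1.80, −1.85 and −1.46. Each was nearer the members' median than that of 1110059M19Rik (−1.62, −1.76 and −1.36). How many plexus genes and other genes a search without the filter would name was not tested. 1500015O10Rik was also the gene nearest to each of Ttr, Kl, Folr1, Kcne2 and Sostdc1, at 0.779 from Folr1 and 2.57 from Ttr, so no gene outside the members came close to Ttr. Krt9 was nearest to Clic6 (0.119), Mafa to Enpp2 (0.194), Gpx6 to Otx2 (0.187), Penk to Calml4 (0.303) and 1110059M19Rik to Kcnj13 (0.901). With 3 ratios that share 1 wild-type library, likeness of this kind is a description only.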

How the data were processed

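The values came from 1 table with an FPKM value and a scaled count value per feature and library. Per the submitters' processing notes, the build was mm10 and the tools were Bowtie2 2.1.0, Cuffdiff, Cufflinks 2.1.1, Cuffnorm, TopHat, TopHat2 2.0.11 and bcl2fastq 1.8.4, with no role or order. For annotation, strandedness and scaling the steps are not given in the sources used. FPKM were used as the authors deposited them, per the file headers. The deposited count columns are a scaled signal, not raw counts: 98.1% to 98.4% of those above 0 were whole multiples, to 0.05, of a step of each library's own (1.27 in HDQ150/150, 0.895 in HDQ200/200, 1.13 in HDQ315/+ and 0.781 in HDQ+/+). Division by the step gave whole fragments.

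Libraries were assigned to genotypes from the labels and columns from their names. Features without a name (5934) and short non-coding genes by GENCODE M21 type (653) were left out, and 12881 genes had a mean of at least 1 FPKM. Ratios were differences of log2(FPKM + 1), called from 1.5-fold. Intervals of scaled count ratios are exact Clopper-Pearson intervals (scipy 1.17.1), tested on simulated data, and cover counting error only. No replicate test was run, with 1 library per genotype. Table starts were raised by 1 to count from 1, and Kcnj13 and Calml4 take GENCODE M21 spans, since the table gives them a shared locus. Members and gene lists were chosen with earlier results of these data known. Named in the text are the members, genes of the other plexus lists, the most abundant genes of each other list, genes overlapping a member, and the 10 genes nearest the members' median ratios with the nearest to each member; further genes of the other lists (Alb, Fabp1, Serpina1c, Fgb, Cldn5, Plvap, Dynlrb2, Rsph1, Ccdc153, Pde10a) were named after their values had been seen. Alternatives were a pseudocount of 0.1, scaled counts in place of FPKM, median centring, upper quartile scaling, removal of a trend with transcript length (statsmodels 0.14.6), filters, and members left out.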

Additional observations from a re-analysis of the deposited data

Results flagged for a closer look

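Among genes of the ependymal list, Ccdc153 was past the fold size in opposite directions in different mutants, higher in HDQ315/+ (0.66) and lower in HDQ150/150 (−0.84) and HDQ200/200 (−0.75), with 3.02, 3.28 and 10.4 FPKM in the mutants and 6.20 in HDQ+/+. Rarres2 was likewise higher in HDQ315/+ (0.60) and lower in HDQ200/200 (−0.71). The difference between the mutants was not tested, since each is 1 library.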

How the results depend on the processing

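All 10 members were called lower in each of the 3 mutants with a pseudocount of 0.1, scaled counts in place of FPKM, median centring, upper quartile scaling, the length trend removed and, chosen after seeing the data, scaled count ratios with no pseudocount. Their 150 ratios to HDQ+/+ under the first 5 of these were all below 0. A pseudocount of 0.1 moved the members' medians to −3.49 in HDQ150/150, −3.20 in HDQ200/200 and −2.18 in HDQ315/+, since a pseudocount of 1 shrinks low genes. Without Ttr or without Enpp2 the medians were between −2.47 and −1.68. Members past the fold size between HDQ200/200 and HDQ150/150 numbered 0, but 2 with the pseudocount of 0.1, 1 with scaled counts, 1 with the length trend removed and 2 with scaled count ratios. Between HDQ315/+ and HDQ200/200 they numbered 4, but 8, 7 and 8 with the pseudocount of 0.1, scaled counts and scaled count ratios. For scaled count ratios past 1.5-fold, the share of all genes is not given here. With the length trend removed, the direction of Kcnj13 turned between HDQ315/+ and HDQ200/200 (−0.34), and those of Ttr (0.16), Folr1 (0.46), Kcne2 (0.14) and Calml4 (0.20) between HDQ200/200 and HDQ150/150, so those orders depend on it; the cause was not tested. Other scalings turned Folr1 and Calml4 there too, to 0.02 or less. Other plexus genes called lower numbered 14, 14 and 10 in HDQ150/150, HDQ200/200 and HDQ315/+, but 4, 5 and 3 at 10 FPKM or more, and 27, 27 and 22 with no filter, as fewer or more genes were compared. Their medians moved to −0.47 (HDQ150/150) and −0.56 (HDQ200/200) at 10 FPKM or more, to −0.86 (HDQ150/150) with the pseudocount of 0.1, and to −0.95 (HDQ150/150) and −0.68 (HDQ315/+) with scaled counts; the cause of the last was not tested. Over all genes, lower and higher calls numbered 428 and 377 in HDQ150/150, but 209 and 174 at 10 FPKM or more, 671 and 571 with the pseudocount of 0.1, and 790 and 353 with scaled counts. In HDQ200/200 they numbered 1132 and 693, but 787 and 226, 1495 and 1045, and 1011 and 917 in that order, and 904 and 905 after median centring. In HDQ315/+ they numbered 273 and 373, but 134 and 160, 476 and 575, and 711 and 365, and 354 and 293 after centring. For HDQ200/200 over HDQ150/150, 1382 and 982 became 1086 and 381 at 10 FPKM or more, 793 and 1812 with scaled counts, and 1045 and 1282 after centring. For HDQ315/+ over HDQ150/150, 249 and 323 became 97 and 88, 382 and 510 with the pseudocount of 0.1, and 298 and 259 after centring. For HDQ315/+ over HDQ200/200, 1415 and 2345 became 545 and 1677, 2146 and 2071 with scaled counts, and 1982 and 1667 after centring. No paired analysis was possible because each genotype has 1 library, and for the same reason none could be left out of a group. With 10 to 76 fragments in a mutant, the levels of Kcne2, Sostdc1, Folr1, Kcnj13, Otx2 and Calml4 are known only to the width of their intervals.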

Other observations

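Neighbouring brain regions also differed among the libraries. Of 6 thalamic genes, 6 were called higher in HDQ315/+ and 1 each in HDQ150/150 and HDQ200/200, beside 2.90%, 2.93% and 5.38% of all genes. Gbx2 was at 0.416 FPKM in HDQ150/150, 0.355 in HDQ200/200 and 4.6 in HDQ315/+, against 0.576 in HDQ+/+. It passed the filter through HDQ315/+ alone and so had to be higher there. The thalamic list summed to 17.7 FPKM in HDQ150/150, 18.9 in HDQ200/200 and 102 in HDQ315/+, against 18.0 in HDQ+/+. All 4 cortical neuron genes were called higher in HDQ150/150 and HDQ200/200. In HDQ315/+ 2 were higher and 1 lower, where 2.12% of all genes were lower. Slc17a7, the vesicular glutamate transporter of cortical neurons, was at 199, 106 and 71.7 FPKM in the mutants and 57.0 in HDQ+/+. The library with the most thalamic signal, HDQ315/+, was also the mutant with the most plexus signal in 9 of 10 members. HDQ+/+, highest for all 10 members, had a thalamic sum of 18.0 FPKM, near those of HDQ150/150 and HDQ200/200. Whether thalamic and plexus signal are related was not tested.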
